A study of Mus musculus with 12 samples.

Results

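Genes of glycolysis and of the response to low oxygen were followed as 1 group of 36 in mouse carotid arteries after partial ligation. The list holds glycolytic enzymes, glucose and lactate transporters, and known targets and regulators of hypoxia-inducible factor (HIF). Members were taken by name from a list drawn up with earlier results of these data known, and each was represented by the brightest of its probes, taken by the mean of all 12 arrays. Of the 36 genes, 33 had a probe with their symbol among the 19057 genes with a probe, and 27 passed the filter on dim probes (at or above the median of their array on at least 3 arrays) and were tested among 15395 genes. Hk2, Gpi1 and Eno1 had no probe under their symbol and were not analysed here.

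The study asked how fibulin-5, an elastic fibre protein, bears on stiffening and remodelling of arteries under disturbed flow. In each mouse the left carotid (LCA) was partially ligated, the right carotid (RCA) was left alone, and both were taken 1 day later. The 4 groups were WT RCA, WT LCA, KO RCA and KO LCA, each with 3 one-colour Illumina arrays of total RNA. Wild type is WT, and KO is the knockout that the labels call FibVKO, with C57Bl/6J as the strain label of all arrays. The labels give neither age, sex, the deleted exons nor the cells that lack the gene, and do not state whether the 3 arrays of each group stand for 3 animals. P-values thus measure the spread between these arrays, which may in part be technical.

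Glycolysis turns glucose into pyruvate, which lactate dehydrogenase can reduce to lactate so that the pathway keeps running with little oxygen. HIF is a dimer whose alpha subunit is marked for destruction by oxygen-dependent prolyl hydroxylases (Egln genes) and the VHL ubiquitin ligase. Without oxygen the subunit persists, enters the nucleus and switches on glucose uptake, most glycolytic enzymes and lactate export. Endothelial cells rely heavily on glycolysis, and disturbed flow is known to raise both HIF and glycolysis in cultured endothelium, whereas the flow-induced factor Klf2 holds Pfkfb3 down.

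Intensities are linear and given per array, always in the order replicate 1, 2, 3. The lowest deposited value was 72.4, well above 0, so fold changes of dim genes are understated. As a guide to background, the 95th percentile of the probes for olfactory and vomeronasal receptors lay between 95.7 and 126 on the 12 arrays and is called the receptor level. The array of WT LCA replicate 3 stood apart. Its median correlation with the others was 0.630, the lowest of all, 16% of genes exceeded its receptor level against 28.5% to 48.5% on the other arrays, and it was the lowest array for 9 of the 27 tested members and the highest for 5. Many of the differences named below are given with and without it. For KO minus WT in LCA, leaving it out moved P4ha2 from -0.21 to 0.23, Pgk1 from 0.04 to -0.45 and Pfkfb4 from -0.44 to -0.02. In the same comparison Pgam1 moved from 0.51 to 0.18 and Tpi1 from 0.68 to 0.41. The probe for Fbln5, the targeted gene, lay from 80.6 to 97.4, above the receptor level on 0 of 12 arrays, and so checks nothing about the knockout. Of 12 endothelial markers 9 exceeded the receptor level on all 12 arrays, against 1 of 10 smooth muscle markers, and 7 of 9 skeletal muscle markers (Ckm, Acta1, Myh1, Tnnt3, Tnni2, Atp2a1 and Mb) exceeded it on none. In such bulk RNA, fewer cells of a type and less RNA per cell cannot be told apart.

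HIF binds a short core, ACGTG or GCGTG, and the upstream regions of the members were searched for it on both strands. Sequences came from RefSeq promoters of GRCm38.p6, in windows of 250 bases before each annotated start, with a match for 34 of the 36 members (Slc2a3 and Ndrg1 had no entry). At least 1 core was present in 39 of 47 member windows (83.0%), against 38.6% of all 32851 windows. By gene, 31 of 34 members had a core in at least 1 window, against 41.5% of all genes. ACGTG was in 48.9% of member windows and 16.6% of all windows, and GCGTG in 57.4% and 28.2%. Member windows were also richer in G and C, with a median of 61.6% against 52.4%, and no background matched for G and C was used. Known HIF targets were put on the list by choice, so the excess is no independent result. Windows of the same gene can overlap and count a core more than once. ACGTG lies inside the E-box CACGTG, which other factors such as Myc bind. The windows below belong to the 5 members whose KO LCA arrays all lay above all WT LCA arrays, printed 5′ to 3′ on the gene's strand in lower case with each core in capitals.
Slc2a1 (chr4:119108495-119108744, plus strand): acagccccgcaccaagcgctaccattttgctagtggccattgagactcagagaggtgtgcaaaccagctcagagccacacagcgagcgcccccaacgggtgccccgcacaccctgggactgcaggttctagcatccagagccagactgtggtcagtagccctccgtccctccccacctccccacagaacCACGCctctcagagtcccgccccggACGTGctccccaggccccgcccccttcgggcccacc
Pfkp (chr13:6648772-6649021, minus strand): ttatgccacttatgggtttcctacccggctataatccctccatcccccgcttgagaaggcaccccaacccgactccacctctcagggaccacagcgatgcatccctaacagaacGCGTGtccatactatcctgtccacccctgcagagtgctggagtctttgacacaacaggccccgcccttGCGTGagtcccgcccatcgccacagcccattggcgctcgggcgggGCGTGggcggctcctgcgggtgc
Gapdh (chr6:125165774-125166023, minus strand): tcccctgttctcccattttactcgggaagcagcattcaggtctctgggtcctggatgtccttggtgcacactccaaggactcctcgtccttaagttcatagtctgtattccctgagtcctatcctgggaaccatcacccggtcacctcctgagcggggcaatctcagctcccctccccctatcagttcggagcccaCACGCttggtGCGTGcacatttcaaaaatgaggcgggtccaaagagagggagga
Aldoa (chr7:126799255-126799504, minus strand): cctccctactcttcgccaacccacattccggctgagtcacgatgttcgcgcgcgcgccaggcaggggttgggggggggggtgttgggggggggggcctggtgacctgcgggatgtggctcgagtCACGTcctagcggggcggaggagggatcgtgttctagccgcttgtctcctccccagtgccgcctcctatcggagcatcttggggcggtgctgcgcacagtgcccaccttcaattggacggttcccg
Ldha (chr7:46845554-46845803, plus strand): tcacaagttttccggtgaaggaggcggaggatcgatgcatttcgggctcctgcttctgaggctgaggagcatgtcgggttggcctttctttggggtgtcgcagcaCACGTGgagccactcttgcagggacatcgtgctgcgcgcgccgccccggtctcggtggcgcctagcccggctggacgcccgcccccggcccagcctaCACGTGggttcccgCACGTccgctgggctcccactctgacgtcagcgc

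Slc2a1 held 2 cores in this window, Pfkp 3, Gapdh 2, Aldoa 1 and Ldha 5, where CACGTG counts as a core on each strand and occurs at 2 places. Aldoa has 3 annotated windows, of which 2 overlap and hold the same core and the remaining one holds 0. Ldha has 2 windows, and the one not printed holds 1 core. A match describes the letters only, and no binding was measured.

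No member passed the test after adjustment over all genes (limma, Benjamini-Hochberg) in any of the 5 comparisons. The values below are therefore levels, and log2 differences between group means with their standard errors, most of them named at an unadjusted p under 0.05. The plainest pattern was by genotype. Slc2a1, the main glucose transporter of most cells, and Pfkp, the platelet-type phosphofructokinase, were higher on all 6 KO arrays than on all 6 WT arrays, Pfkp on the brightest of its 3 probes only. That split was shown by 2 of the 27 tested members (7.41%) and by 127 of 15395 genes (0.825%), and 28 genes (0.182%) were lower on all 6 KO arrays, none of them a member. The summed intensity of 10 smooth muscle markers split the arrays the same way, from 985 to 1621 on WT arrays and from 1778 to 4182 on KO arrays, and its part in the result was not tested. This split was looked for after the values were seen, and the labels do not exclude that a mouse gave both of its arteries. In ligated arteries Gapdh, Aldoa and Ldha were higher in KO as well, with smaller differences without the array that stood apart.

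**Figure D1:**
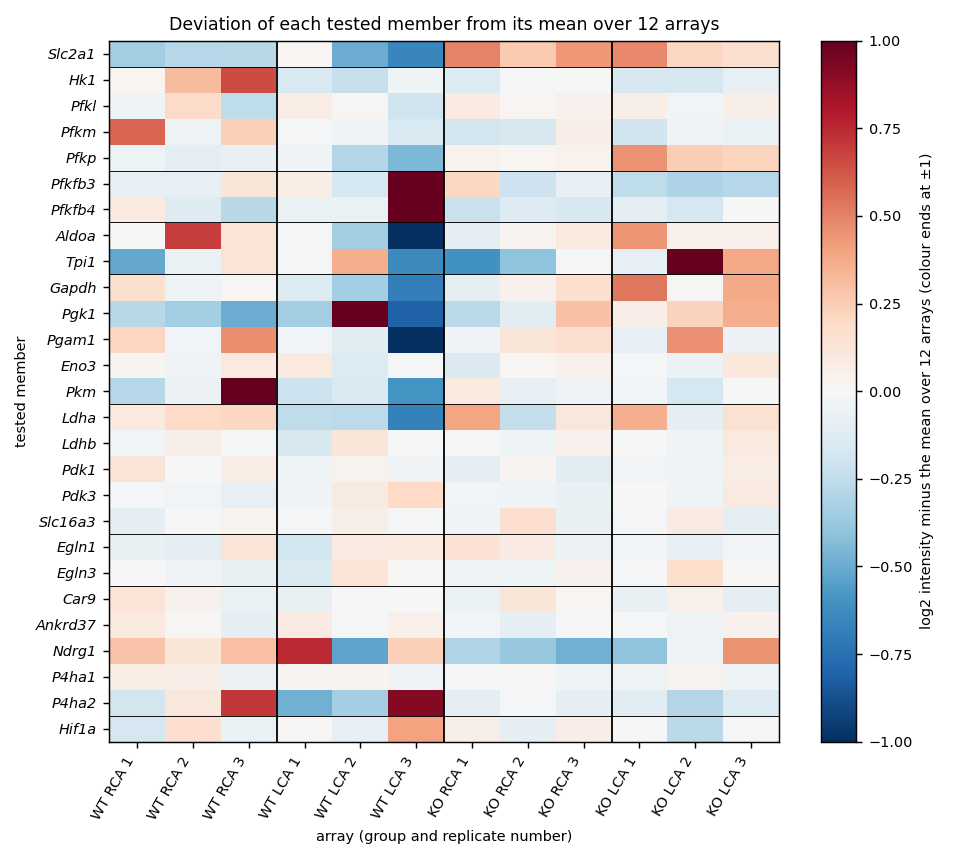
Deviation of each of the 27 tested members (rows, in order of role) on each of the 12 arrays (columns) from its mean over the arrays, in log2 units, with the colour ending at ±1 and black lines between the 4 groups and the roles. The Slc2a1 row is blue or pale on the WT arrays and red on the KO arrays, and the column of WT LCA replicate 3 holds the deepest blue for Aldoa and Pgam1 and the deepest red for Pfkfb3 and Pfkfb4.

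Glucose enters through transporters of the Slc2a family. Slc2a1 (Glut1), the basal and HIF-induced carrier, read 127, 132 and 133 in WT RCA, 163, 114 and 102 in WT LCA, 228, 193 and 218 in KO RCA, and 225, 186 and 180.0 in KO LCA. The lowest KO array, 180.0, was above the highest WT array, 163, and neither genotype's RCA and LCA arrays were apart. The KO minus WT log2 difference was 0.70 ± 0.16 (SE) in RCA, adjusted p = 0.761, and 0.66 ± 0.16 in LCA, adjusted p = 0.278 (limma). These comparisons share no arrays, but they share the model's estimate of the spread and may share mice. Without WT LCA replicate 3 the LCA difference was 0.52. Without WT LCA replicate 1, the brightest WT array for this gene, it was 0.86 with adjusted p = 0.0401 (limma), which passes. Leaving out the WT array nearest to KO widens the gap by itself. Ligation left a difference of -0.07 ± 0.16 in WT and -0.11 ± 0.16 in KO, with 95% intervals of -0.43 to 0.28 and -0.47 to 0.24. Slc2a1 has 1 probe, so no second probe could be set beside it. Slc2a3 (Glut3), a high-affinity carrier of neurons and white cells, stayed between 83.0 and 94.9, below the receptor level on all 12 arrays, and was not tested.

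**Figure D2:**
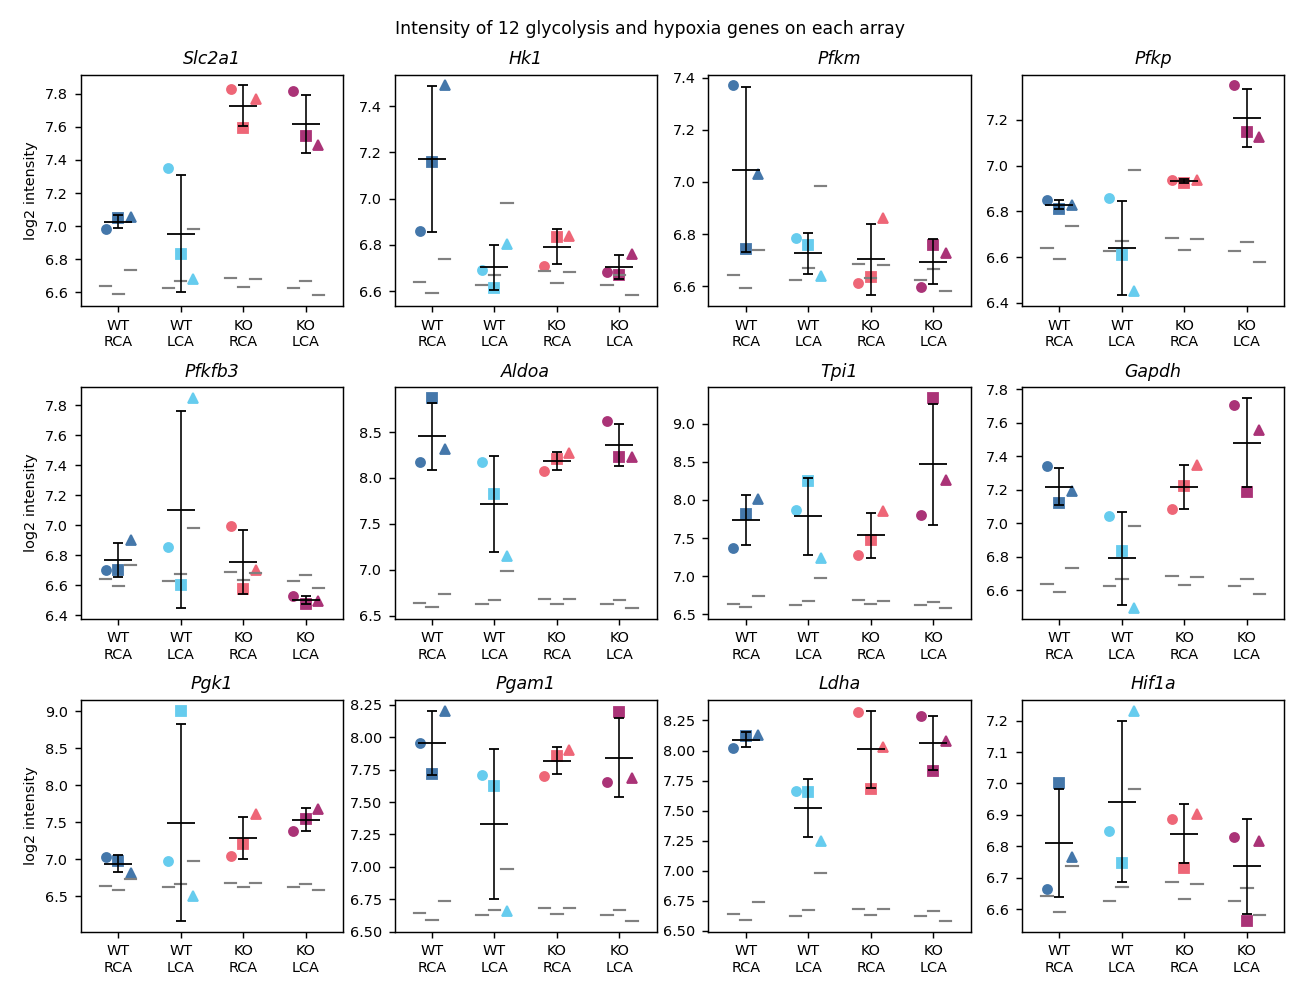
Log2 intensity of 12 members on each array, by group. The circle, square and triangle are replicates 1, 2 and 3, the black bar is the mean ± SD of the 3 log2 values, and each grey dash is the receptor level of that array, so a symbol on or under its dash is at background. All KO symbols of Slc2a1 and Pfkp sit above all WT symbols, and the WT LCA triangle is lowest in its group for Aldoa, Gapdh, Pgam1 and Ldha and highest for Pfkfb3 and Hif1a.

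Hexokinase traps glucose in the cell as glucose 6-phosphate. Hk1, the housekeeping hexokinase on the mitochondrial surface, read 116, 143 and 180.0 in WT RCA, 103, 97.9 and 112 in WT LCA, 104, 114 and 114 in KO RCA, and 103, 102 and 109 in KO LCA. The WT RCA arrays were the high group: their lowest value, 116, exceeded every other array. The log2 difference was -0.47 ± 0.13 for ligation in WT (adjusted p = 0.576) and -0.38 ± 0.13 for KO minus WT in RCA (adjusted p = 1.00), and both comparisons share the WT RCA arrays. Without WT RCA replicate 3, at 180.0, they were -0.31 and -0.22. In LCA the genotypes differed by 0.00 ± 0.13. A second, dimmer probe of Hk1, with a mean of 95.1, gave -0.06 for ligation in WT and -0.00 for genotype in RCA. The high WT RCA value thus rests on 1 of 2 probes.

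Phosphofructokinase, the committed step, is a tetramer of liver (Pfkl), muscle (Pfkm) and platelet (Pfkp) subunits. Pfkp read 115, 112 and 113 in WT RCA, 116, 97.5 and 87.5 in WT LCA, 123, 121 and 123 in KO RCA, and 163, 142 and 139 in KO LCA. Within RCA the KO arrays, 121 to 123, lay just above the WT arrays, 112 to 115, and the KO LCA arrays stood highest at 139 to 163. Its KO minus WT difference in LCA, 0.57 ± 0.10 with adjusted p = 0.120, had the smallest p of any member in any comparison and ranked 26 by p among 15395 genes. In RCA the difference was 0.10 ± 0.10. Ligation differed by -0.19 ± 0.10 in WT and 0.28 ± 0.10 in KO, and the interaction, which is the KO minus the WT ligation difference, was 0.46 ± 0.14 with adjusted p = 0.902. Without WT LCA replicate 3, at 87.5, the LCA difference was 0.47, adjusted p = 0.153 (limma). Without WT LCA replicate 1, at 116, it was 0.68, adjusted p = 0.0262 (limma), which passes. That array was the WT LCA array nearest to KO, so leaving it out widens the gap by itself. The other probes disagreed. One of mean 118 read 113, 108 and 96.5 in WT RCA, 113, 115 and 146 in WT LCA, 122, 104 and 105 in KO RCA, and 125, 155 and 119 in KO LCA, and its genotype difference was 0.06 in RCA and 0.10 in LCA, with overlapping groups. The dimmest, of mean 92.8, gave -0.14 in RCA, where its KO arrays, 85.1 to 92.1, were all below its WT arrays, 96.0 to 97.5, and 0.08 in LCA. The split of all KO from all WT arrays was therefore seen on 1 of 3 Pfkp probes. With all kept probes averaged the LCA difference was 0.25.

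The muscle subunit Pfkm had its high arrays in WT RCA, with 166, 107 and 131 in WT RCA, 110.2, 108 and 99.6 in WT LCA, 97.8, 99.3 and 116 in KO RCA, and 96.7, 108 and 106 in KO LCA. The WT RCA values, 107 to 166, overlapped the others only through replicate 2. Pfkm differed by -0.32 ± 0.14 with ligation in WT (adjusted p = 0.683) and by -0.34 ± 0.14 between genotypes in RCA (adjusted p = 1.00). Its other probes gave -0.25 and -0.42 for the first and -0.12 and -0.36 for the second, all negative. Leaving out WT RCA replicate 1, at 166, brought them to -0.16 and -0.18, and leaving out WT LCA replicate 3 brought the first to -0.28. The liver subunit Pfkl read 106, 125 and 91.8 in WT RCA, 115, 110.2 and 95.3 in WT LCA, 116, 111 and 113 in KO RCA, and 114, 107 and 114 in KO LCA, with overlapping groups and no difference above 0.08 in size among the 4 group comparisons. Its other probe, of mean 106, gave 0.31 ± 0.08 for ligation in WT. On that probe the WT LCA arrays, 105 to 130, lay above all WT RCA arrays, 91.5 to 99.6.

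Pfkfb3 and Pfkfb4 make fructose 2,6-bisphosphate, the main activator of phosphofructokinase, and Pfkfb3 is the form tied to endothelial sprouting. Pfkfb3 read 104, 104 and 119.5 in WT RCA, 116, 97.2 and 231 in WT LCA, 127, 95.3 and 104 in KO RCA, and 92.3, 88.9 and 90.1 in KO LCA. On all KO LCA arrays it was below the receptor level and below every WT LCA array, and on WT LCA replicate 3 it was far above all others. The LCA genotype difference was -0.60 ± 0.26, adjusted p = 0.723. With KO LCA set at the receptor level it was 1.39-fold lower in KO, but that used the 231 of WT LCA replicate 3. The log2 difference shrank to -0.23 when WT LCA replicate 3 was left out, so 1.39 is not a minimum without it. Pfkfb4 had the same bright array, with 109, 93.1 and 84.0 in WT RCA, 97.3, 97.3 and 233 in WT LCA, 87.3, 93.1 and 91.0 in KO RCA, and 95.6, 90.5 and 101 in KO LCA. Its ligation difference in WT, 0.46 ± 0.28 with all arrays, was 0.04 without WT LCA replicate 3, and that of Pfkfb3 went from 0.34 ± 0.26 to -0.04. Outside that array Pfkfb4 exceeded the receptor level on 2 arrays, so its level elsewhere is near background.

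Aldolase splits the phosphorylated hexose, and triose phosphate isomerase interconverts its products. Aldoa, the muscle-type aldolase found in most tissues, read 289, 468 and 317 in WT RCA, 288, 227 and 142 in WT LCA, 270.4, 295 and 309.9 in KO RCA, and 394, 300.3 and 300.0 in KO LCA. WT LCA held the lowest values, and its highest array, 288, was below the lowest array of WT RCA, 289, and of KO LCA, 300.0. Its log2 difference was -0.74 ± 0.26 for ligation in WT (adjusted p = 0.683), 0.17 ± 0.26 for ligation in KO, and 0.65 ± 0.26 for KO minus WT in LCA (adjusted p = 0.657). The interaction was 0.91 ± 0.36, adjusted p = 0.902, and 0.63 without WT LCA replicate 3. Comparisons of WT ligation, LCA genotype and interaction share the WT LCA arrays, so they are not independent. Without WT LCA replicate 3, at 142, the WT ligation and LCA genotype differences were -0.45 and 0.36, with unadjusted p = 0.0638 and 0.125. Aldoc, the brain aldolase, lay between 81.1 and 93.4 and was not tested.

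Tpi1 read 166, 225 and 258 in WT RCA, 234, 303 and 152 in WT LCA, 155, 178 and 232 in KO RCA, and 223, 646 and 307 in KO LCA. Most of the spread came from KO LCA replicate 2 at 646. Its ligation difference in KO was 0.93 ± 0.39, adjusted p = 0.722, and 0.50 without that array. A second bright probe of Tpi1 saw the same array, with 149, 149.7 and 203 in WT RCA, 172, 211 and 96.6 in WT LCA, 149, 139 and 188 in KO RCA, and 146, 414 and 181 in KO LCA, and a difference of 0.50. Both probes therefore place KO LCA replicate 2 above all other arrays, and groups overlapped in each comparison.

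Lower glycolysis recovers ATP. Gapdh, the dehydrogenase that makes the first high-energy phosphate of the pathway, read 162, 139 and 146 in WT RCA, 132, 114 and 90.1 in WT LCA, 136, 149.5 and 163 in KO RCA, and 209, 146 and 188 in KO LCA. In LCA every KO array was above every WT array, with group means of 181 ± 32.1 and 112 ± 21.0 (SD, n = 3), while in RCA the means were 149 ± 13.5 and 149 ± 11.6. The difference was 0.69 ± 0.16 in LCA (adjusted p = 0.274) and -0.00 ± 0.16 in RCA. Ligation differed by -0.43 ± 0.16 in WT (adjusted p = 0.683) and 0.26 ± 0.16 in KO, opposite signs whose interaction was 0.69 ± 0.23 (adjusted p = 0.902). Without WT LCA replicate 3, at 90.1 and under its receptor level, the LCA genotype difference was 0.54, the WT ligation difference -0.28 and the interaction 0.54. Gapdh is often used to scale other genes, and it was read here by 1 probe.

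Pgk1, phosphoglycerate kinase, read 131, 126 and 113 in WT RCA, 126, 514 and 91.0 in WT LCA, 132, 148 and 195 in KO RCA, and 167, 187 and 205 in KO LCA. WT LCA replicate 2, at 514, stood alone. The other probes of this gene did not show it, reading 95.3 and 91.5 on that array. In RCA the KO arrays, 132 to 195, were all above the WT arrays, 113 to 131, with a difference of 0.34 ± 0.51 (adjusted p = 1.00). The WT ligation difference was 0.55 ± 0.51 with all arrays, -0.20 without WT LCA replicate 2 and 1.04 without WT LCA replicate 3, so its sign depended on 1 array.

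Pgam1, phosphoglycerate mutase, read 248, 209.9 and 295 in WT RCA, 209, 197 and 101 in WT LCA, 208, 232 and 239 in KO RCA, and 201, 294 and 205 in KO LCA. The WT LCA arrays were below all WT RCA arrays, with 101 on replicate 3. The WT ligation difference of -0.63 ± 0.27 (adjusted p = 0.683) was -0.29 without that array, and a dimmer probe gave 0.20, the opposite sign. Pkm, pyruvate kinase, read 126, 148 and 452 in WT RCA, 133, 138 and 102 in WT LCA, 165, 145 and 148 in KO RCA, and 151, 136 and 154 in KO LCA, where WT RCA replicate 3, at 452, had no counterpart on the second probe, 97.4. That second probe had its own lone high array, 259.8 on KO RCA replicate 2. All 4 groups of Pkm overlapped in each comparison on the main probe. Of the enolases, Eno2 (neuronal) never exceeded the receptor level and Eno3 (muscle) did so on 2 of 12 arrays, at 88.1 to 105.

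Ldha, the lactate dehydrogenase subunit that favours lactate and a classic HIF target, read 259.6, 279 and 279.8 in WT RCA, 203, 202 and 152 in WT LCA, 319.5, 205 and 262 in KO RCA, and 312, 228 and 270.0 in KO LCA. All WT LCA arrays, at most 203, were below all arrays of the other groups, of which the lowest read 205. The difference was -0.57 ± 0.18 for ligation in WT (adjusted p = 0.655), 0.05 ± 0.18 for ligation in KO, -0.08 ± 0.18 for genotype in RCA and 0.54 ± 0.18 for genotype in LCA (adjusted p = 0.501). The interaction was 0.62 ± 0.25 with adjusted p = 0.902, and 0.48 without WT LCA replicate 3. The WT ligation difference was -0.43 and the LCA genotype difference 0.40 without WT LCA replicate 3. Ldhb, the subunit of tissues that burn lactate, read 98.5, 104 and 99.6 in WT RCA, 89.6, 109 and 99.9 in WT LCA, 98.8, 97.4 and 104 in KO RCA, and 100, 97.5 and 107 in KO LCA, close to the receptor level, and its group comparisons ranged from -0.02 ± 0.07 to 0.03 ± 0.07.

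The remaining genes of pyruvate and lactate fate were dim. Pdk1 and Pdk3, kinases that inhibit pyruvate dehydrogenase, exceeded the receptor level on 4 and 1 of 12 arrays and lay between 89.9 and 109. Slc16a3 (Mct4), the HIF-induced lactate exporter, did so on 2 arrays, at 89.6 to 108, and Slc16a1 (Mct1) on none. No difference of Pdk1, Pdk3 or Slc16a3 between groups exceeded 0.13 in size.

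Among oxygen sensors and HIF itself, Hif1a, the oxygen-regulated alpha subunit, read 101, 128 and 109 in WT RCA, 115, 107 and 150.3 in WT LCA, 118, 106 and 119.6 in KO RCA, and 114, 94.4 and 113 in KO LCA. Its highest array was WT LCA replicate 3, at 150.3, and all groups overlapped. The 4 group differences were 0.13 ± 0.14 for ligation in WT, -0.10 ± 0.14 in KO, 0.03 ± 0.14 for genotype in RCA and -0.21 ± 0.14 in LCA, with 95% intervals of -0.18 to 0.44, -0.41 to 0.21, -0.28 to 0.34 and -0.52 to 0.10. The first was -0.01 and the last -0.06 without WT LCA replicate 3. A second kept probe gave differences from -0.03 to 0.04. HIF is controlled mainly through its protein, which arrays do not measure. Egln1 (Phd2), the main oxygen sensor of HIF, lay between 97.8 and 123 and exceeded the receptor level on 10 of 12 arrays, with differences no larger than 0.10. Egln3 (Phd3), itself a HIF target, exceeded it on 2 arrays.

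Of the other HIF targets, Ndrg1 and P4ha2 were bright and the rest near background. Ndrg1, a stress-induced gene of differentiation, read 273, 244 and 276 in WT RCA, 377, 156 and 266 in WT LCA, 182, 173 and 161 in KO RCA, and 169.8, 217 and 307 in KO LCA. In RCA the KO arrays, 161 to 182, were all below the WT arrays, 244 to 276, a difference of -0.62 ± 0.29 with adjusted p = 1.00. Another probe of Ndrg1 gave -0.84 there and -1.20 for ligation in WT, where the main probe gave -0.08 ± 0.29. P4ha2, a collagen prolyl hydroxylase subunit named after its values were seen, read 140.0, 171 and 258 in WT RCA, 114, 126 and 300.3 in WT LCA, 148, 158 and 149 in KO RCA, and 147, 129.8 and 144 in KO LCA. Both WT arrays numbered 3 were high. The other probes read 83.9 and 102 on WT LCA replicate 3, against 300.3 on the main probe. Its WT ligation difference was -0.18 ± 0.34 with all arrays and -0.62 without that array, and the other probes gave -0.97 and -0.26. P4ha1, its partner isoform, Car9, an acid-handling carbonic anhydrase, and Ankrd37 lay between 84.7 and 104, above the receptor level on 2, 3 and 0 arrays. Bnip3, a mitophagy receptor, and Adm, the vasodilator adrenomedullin, exceeded it on 0 of 12 arrays and were not tested.

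Ligation in WT went with lower intensities of several glycolytic enzymes, none past the adjusted test. Of the 27 tested members 6 were lower at an unadjusted p under 0.05 (Hk1, Ldha, Aldoa, Gapdh, Pgam1 and Pfkm) and 0 higher. These counts use the brightest probe of each gene. Dimmer probes moved both ways. Those of Pfkl and Tpi1 with WT LCA arrays above all WT RCA arrays gave 0.31 ± 0.08 and 0.13 ± 0.04. Others of Ndrg1 and P4ha2 gave -1.20 ± 0.32 and -0.97 ± 0.24. Over all 15395 genes 4.44% were lower at that level, 2.46% higher, and 0% passed after adjustment. The median member difference was -0.05, against -0.00 over all genes, with 10 members above 0 and 17 below. WT LCA arrays lay entirely below WT RCA arrays for 5 members (Hk1, Aldoa, Gapdh, Pgam1 and Ldha) and entirely above for 0, where all genes gave 6.6% and 4.49%. Without WT LCA replicate 3, the lower members were 3 (Hk1, Ldha and P4ha2), against 2.39% of all genes. The summed endothelial markers were 5022 to 5782 in WT RCA and 4261 to 4644 in WT LCA, with 3 of 12 lower at an unadjusted p under 0.05. In KO they were 4526 to 6110 in RCA and 4093 to 6359 in LCA, with overlap, and 1 of 12 was lower. Their mean log2 difference with ligation was -0.24 in WT and -0.21 in KO. Their part in the result was not tested.

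In KO arteries ligation gave 2 members higher at an unadjusted p under 0.05, Pfkp and Tpi1, and 0 lower, where 2.81% of all genes were higher, 4.06% lower and 0% passed after adjustment. The median was 0.02 against -0.01 for all genes. Pfkp alone was higher on all KO LCA than all KO RCA arrays, against 8.44% of all genes, and Pfkfb3 and P4ha2 were lower, against 11.5%. The members lower after WT ligation had KO differences of -0.09 ± 0.13 (Hk1), 0.05 ± 0.18 (Ldha), 0.17 ± 0.26 (Aldoa), 0.26 ± 0.16 (Gapdh), 0.02 ± 0.27 (Pgam1) and -0.01 ± 0.14 (Pfkm). The difference between the genotypes' ligation effects was itself tested. In that interaction 4 members (Pfkp, Gapdh, Aldoa and Ldha) were higher at an unadjusted p under 0.05 and 0 lower, against 2.18% and 1.34% of all genes, and 0% passed after adjustment. The 4 became 2, Gapdh and Pfkp, without WT LCA replicate 3. The median interaction of the members was 0.05 and that of all genes -0.01. Smooth muscle markers summed to 1778 to 2685 in KO RCA and 2993 to 4182 in KO LCA, without overlap, with 1 of 9 tested markers higher at an unadjusted p under 0.05. Fibroblast markers summed to 1146 to 1465 and 1305 to 1853, with overlap, and 5 of 8 were higher for ligation in KO and 4 of 8 for the interaction. Adipocyte markers summed to 671 to 793 and 906 to 1063, without overlap, and 1 of 6 tested was higher for ligation in KO. The part of these 3 lists in the members' differences was not tested.

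**Figure D3:**
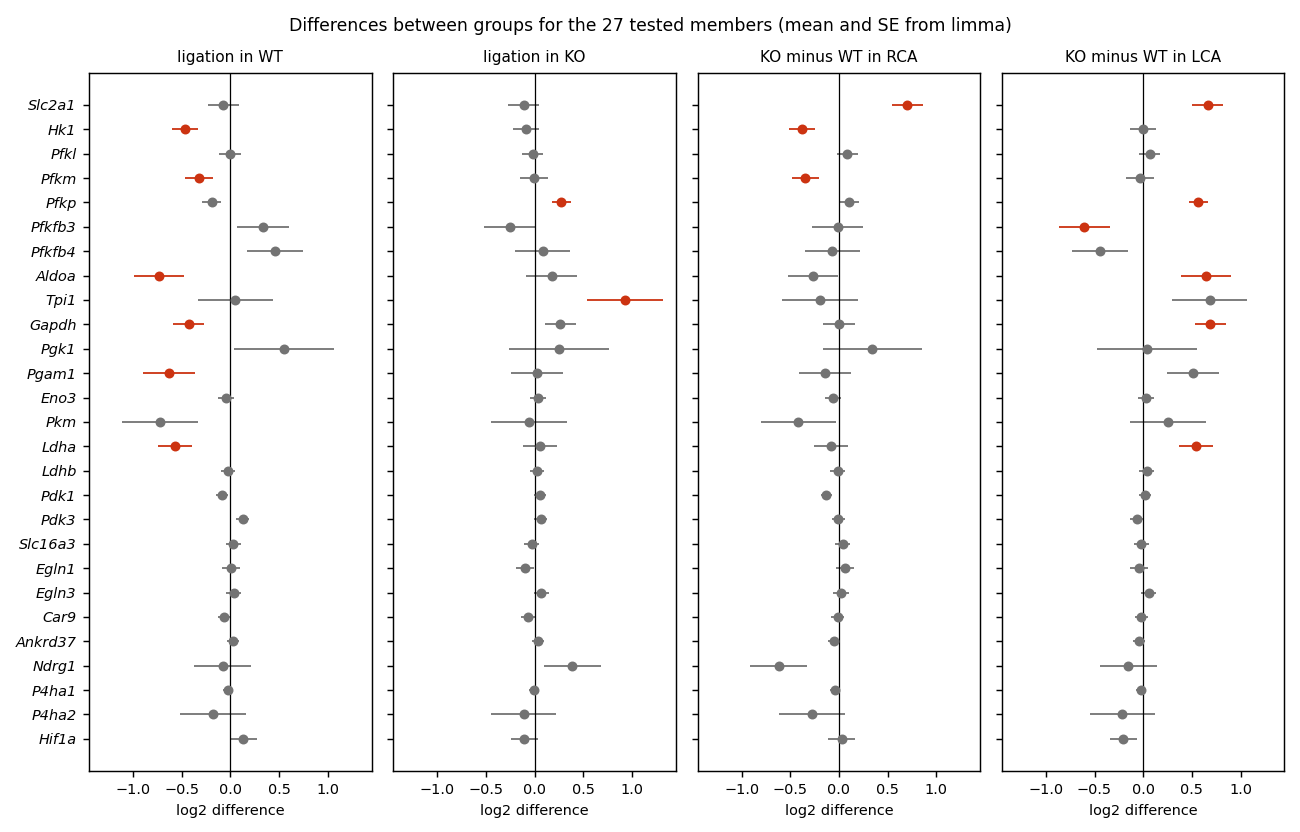
Log2 difference (point) and its standard error (bar) from limma for the 27 tested members in ligation in WT, ligation in KO, KO minus WT in RCA and KO minus WT in LCA. Red marks an unadjusted p under 0.05, and no member passed after adjustment. The red points lie left of 0 in WT ligation, where Aldoa is at -0.74, and mostly right of 0 for KO minus WT in LCA, where Gapdh is at 0.69.

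In the untouched RCA, KO exceeded WT at an unadjusted p under 0.05 for 1 member, Slc2a1, and was lower for 2, Hk1 and Pfkm. All genes gave 2.51% higher, 1.78% lower and 0% after adjustment. The median member difference was -0.04 and that of all genes 0.00. KO arrays were wholly above WT arrays for Slc2a1, Pfkp and Pgk1, against 6.79% of all genes, and wholly below for Hk1 and Ndrg1, against 5.18%. Summed red cell markers, 5 of 8 with a probe, were 1057 to 2923 in WT RCA and 2559 to 9499 in KO RCA, with overlap. Of these 5 markers 2 were higher in KO at an unadjusted p under 0.05 and 0 lower, with a median log2 difference of 1.15. Smooth muscle markers summed to 1229 to 1420 in WT RCA and 1778 to 2685 in KO RCA, without overlap. Of 9 tested smooth muscle markers 4 were higher in KO at an unadjusted p under 0.05 and 0 lower. The part of either list was not tested.

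In the ligated LCA, 5 members were higher in KO at an unadjusted p under 0.05 (Pfkp, Gapdh, Slc2a1, Ldha and Aldoa) and 1, Pfkfb3, was lower, against 4.83% and 1.99% of all genes. After adjustment 1 of 15395 genes passed (0.0065%), Schip1, which is not a member. The same 6 members were those whose KO and WT arrays did not overlap, against 8.22% of all genes higher and 5.52% lower. The median member difference was 0.02, with 15 members above 0 and 12 below, and that of all genes -0.01. Leaving out WT LCA replicate 3 gave 3 higher (Gapdh, Pfkp and Slc2a1) and 0 lower, and 14 genes passed, none a member. Smooth muscle markers summed to 985 to 1621 in WT LCA and 2993 to 4182 in KO LCA, with 5 of 9 tested markers higher in KO at an unadjusted p under 0.05. Fibroblast markers summed to 867 to 1244 and 1305 to 1853, with 5 of 8 higher. Adipocyte markers summed to 679 to 859 and 906 to 1063, without overlap, with 2 of 6 tested markers higher. The part of these 3 lists in the members' differences was not tested. Markers of skeletal muscle, a tissue rich in Pfkm, summed to 792 to 901 and 795 to 815, near background in both.

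**Figure D4:**
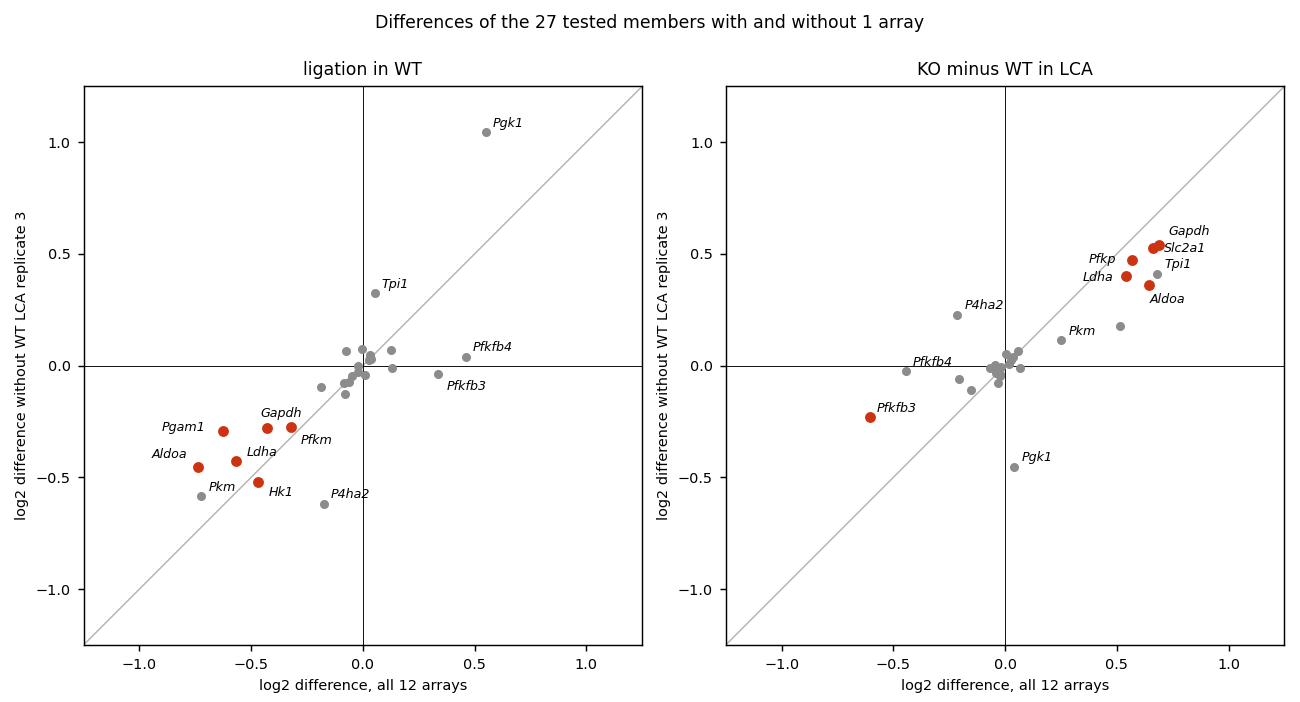
Each point is 1 of the 27 tested members, with its log2 difference from all 12 arrays on the x axis and without WT LCA replicate 3 on the y axis, for ligation in WT (left) and KO minus WT in LCA (right). Red marks an unadjusted p under 0.05 with all arrays, and the grey diagonal marks equal values. Gapdh, Slc2a1 and Pfkp stay near the diagonal on the right at 0.54, 0.52 and 0.47, whereas Pfkfb3 and Pfkfb4 on the left move to -0.04 and 0.04.

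Beyond the members, 61 other genes of glycolysis, pyruvate entry and the hypoxia response were counted, of which 53 had a probe and 49 were tested. None of the 49 passed after adjustment in any comparison (limma). At an unadjusted p under 0.05, 1 was higher and 4 lower for ligation in WT, 1 and 2 for ligation in KO, 2 and 2 for genotype in RCA, 1 and 2 for genotype in LCA, and 0 and 1 for the interaction. Of all genes, 2.46% were higher and 4.44% lower for ligation in WT, and 2.81% and 4.06% for ligation in KO. Genotype gave 2.51% and 1.78% in RCA and 4.83% and 1.99% in LCA, and the interaction 2.18% and 1.34%. The medians of the 49 genes lay between -0.02 and 0.03. After WT ligation the smallest p belonged to Bhlhe40, a hypoxia-induced clock repressor, which read 256, 230.1 and 160.2 in WT RCA, 119.6, 109 and 98.5 in WT LCA, 232, 193 and 159 in KO RCA, and 116, 160.0 and 154 in KO LCA. Its WT LCA arrays were all below its WT RCA arrays, and in KO the arteries overlapped through RCA replicate 3 and LCA replicate 2. Its WT difference was -0.96 ± 0.20. Vegfa, the angiogenic HIF target, differed by -0.43 ± 0.15 and Dlat, a pyruvate dehydrogenase subunit, by 0.43 ± 0.12 in the same comparison.

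For ligation in KO the 3 smallest p belonged to Pgm2 (-0.16 ± 0.05), Hmox1 (0.21 ± 0.08) and Flt1 (-0.16 ± 0.07), all near the receptor level. Epas1, which encodes HIF-2 alpha and is abundant in endothelium, read 626, 943 and 547 in WT RCA, 276, 573 and 351 in WT LCA, 326, 415 and 347 in KO RCA, and 519, 351 and 281 in KO LCA. In RCA its WT arrays, 547 to 943, lay above its KO arrays, 326 to 415, with a genotype difference of -0.93 ± 0.31 and adjusted p = 1.00 (limma). WT LCA replicate 2, at 573, exceeded the lowest WT RCA array. Myc (0.89 ± 0.30) and Kdm3a (-0.68 ± 0.26) followed, each carried by 1 or 2 arrays, 286 on KO RCA replicate 1 for Myc and 231 and 147 on WT RCA replicates 1 and 2 for Kdm3a. Without the brightest of these arrays they were 0.44 and -0.35. In LCA they were Ppp1r3c (-0.26 ± 0.10), Hilpda (-0.37 ± 0.15) and Pdha1 (0.33 ± 0.15). The highest array was WT LCA replicate 3 for Ppp1r3c and Hilpda, and it was the lowest for Pdha1, and without it the 3 differences were -0.12, -0.18 and 0.16. For the interaction they were Vhl (-0.36 ± 0.15), Dlat (-0.35 ± 0.17) and Kdm3a (0.78 ± 0.37).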

How the data were processed

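Total RNA of 12 carotid arteries was labelled as biotinylated cRNA and hybridised to Illumina arrays, per the labels' protocols. The deposited table holds linear probe intensity values made by the authors for 45281 probes. Sorted values differed between arrays by at most 0.564%, which is what quantile normalization gives, and no source used here names the software, the background step or the chip of an array, so no chip block was fitted. Probes were named through the platform annotation. Tests used log2 values computed here from the deposited intensities (floor 1). Probes at or above the array median on at least 3 arrays were kept, and each gene was represented by its brightest kept probe. A single limma model (limma 3.58.1, R 4.3.3) was fitted to the 4 groups of all 12 arrays, with two-sided moderated tests and Benjamini-Hochberg adjustment over 15395 genes at 0.05. The code was tested on simulated data. Per-array values are given for members with an unadjusted p under 0.05 in any comparison, the 8 brightest, Hif1a and isoenzyme partners. Of 61 further pathway genes the 3 with the smallest p in each comparison are named. Members and lists were chosen with earlier results of these data known. The precision is limited by the number of arrays. Alternatives covered the replicate number as a block, the dim-probe filter, the probe rule, centring, the background constant, a pseudocount of 16, the arrays in the fit, array weights, the variance prior and each array left out.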

Additional observations from a re-analysis of the deposited data

How the results depend on the processing

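No alternative reversed any of the named differences of Aldoa, Gapdh, Hk1, Ldha, Pfkfb3, Pfkm, Pfkp, Pgam1, Slc2a1 and Tpi1. These genes were named from the same arrays, so steady signs are no independent result. None passed the adjusted test at the outset, and 489 values under the alternatives did not pass either. The other 2 crossed, Pfkp at 0.68 and Slc2a1 at 0.86 for KO minus WT in LCA. Both left out WT LCA replicate 1, the WT LCA array nearest to KO. Unadjusted p (limma) stayed under 0.05 in 9 of 24 alternatives for Pfkm and 11 of 24 for Pgam1 (WT ligation). It did so in 10 of 23 for Pfkfb3, but in all 23 for Pfkp, Gapdh and Slc2a1 (KO minus WT in LCA). The counts depended on settings, and the cause was not tested. For ligation in WT, members at an unadjusted p under 0.05 were 6, but 3 with only the groups compared, 2 with a trended robust prior and 2 without both WT arrays numbered 3 (an alternative chosen after seeing the data). Genes passing were 0, but 3 with probes averaged, 1 with array weights and 11 without both arrays numbered 3. The median member difference, -0.05, was -0.0835 with a stricter filter and -0.119 with the background constant removed. For ligation in KO, the 2 members were 1 with probes averaged, with only the groups compared and with the trended robust prior. For KO minus WT in RCA the median, -0.04, was -0.10 with the background constant removed, and 5 genes passed without both arrays numbered 3. For KO minus WT in LCA 1 gene passed, but 15 with probes averaged, 2 with array weights, 16 without both arrays numbered 3, and 0 with only the groups compared or the trended robust prior, and the 6 members were 3 without both arrays. The interaction median, 0.05, was 0.23 with the stricter filter and 0.12 with the background constant removed, and its 4 members were 2 with the trended robust prior and 2 without both arrays.

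Leaving out 1 array at a time, the members at an unadjusted p under 0.05 ranged from 3 to 8 for ligation in WT, 1 to 2 in KO, 1 to 4 for KO minus WT in RCA, 3 to 7 in LCA and 2 to 5 for the interaction. Genes passing ranged from 0 to 11, 0 to 6, 0 to 3, 0 to 19 and 0 to 3 in the same order. The interaction median ranged from 0.0266 to 0.103. With the replicate number as a block the 2 members of ligation in KO were 1. Deviations of same-numbered RCA and LCA arrays correlated at 0.04 to 0.07 in WT and at -0.02 to 0.04 in KO. Arrays of unlike number gave -0.05 to 0.01 in WT, all below the same-numbered ones, and -0.06 to 0.07 in KO. These small correlations do not settle whether the numbers pair arteries. The labels do not state it, so the main model used no pairs and the block was an alternative. Signal over background limits the 6 untested members and the 6 tested ones with 2 or fewer arrays above the receptor level.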
